A study of Mus musculus with 4 samples.

Results

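Translation initiation and elongation factor genes were examined in Mnk3, a mouse cell line used as a model of group 3 innate lymphoid cells (ILC3), without and with stimulation by the cytokines IL-1b and IL-23. The genes were taken by symbol: protein-coding genes of the GENCODE M21 annotation whose names begin with Eif1, Eif2s, Eif2b, Eif3, Eif4, Eif5, Eif6, Eef1 or Eef2, without the Eif2ak kinases, and with at least 100 counts summed over the 4 libraries. Of 41388 genes listed in the count tables, 61 carried such a name and 56 reached the count minimum. The other 5 were Eef1a2, Eef1akmt2, Eif4e1b, Eif4e3 and Eif4ebp3. All 56 passed the filter on low counts and were tested.

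RNA-seq was done on total RNA after depletion of ribosomal RNA, with 2 libraries of untreated Mnk3 cells (control 1 and 2) and 2 libraries of Mnk3 cells given 10 ng/ml each of IL-1b and IL-23 (stimulated 1 and 2), each kept for about 16 h. In each group the library numbered 1 is the one titled rep1. Separate cultures are not stated for the libraries of a group. The p-values therefore reflect library-to-library spread alone, and that spread may be technical. Levels are CPM, counts scaled to 1000000 per library after TMM normalization. Each change is a log2 fold change (stimulated relative to control) with its SE from edgeR, with p-values adjusted over all 13838 genes tested and a threshold of 0.05. A gene is said to rise or fall only where it passed. In bulk RNA, a change in the kinds of cells and a change of RNA per cell cannot be told apart.

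Protein synthesis begins when eIF2, carrying GTP and the initiator tRNA, joins the small ribosomal subunit with eIF1, eIF1A, eIF3 and eIF5. The eIF4 factors bring this complex to the capped mRNA: eIF4E holds the cap, eIF4G is the scaffold and eIF4A is the helicase that unwinds the leader. eIF2B recharges eIF2 with GTP, eIF5B joins the subunits, and the 4E-binding proteins block eIF4E when mTORC1 is inactive. In elongation, eEF1A delivers aminoacyl-tRNA, the eEF1B subunits recharge eEF1A, and eEF2 moves the ribosome along. Lymphocytes are known to enlarge this machinery when they leave rest and grow.

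Most of the genes of this machinery rose after stimulation. Of the 56 genes, 36 rose, 3 fell and 17 did not pass, so 64.3% were higher and 5.36% lower. Over all genes tested, 17.5% were called higher and 18.3% lower. The median change of the 56 was 0.70, against -0.02 over all genes tested. Both stimulated libraries lay above both controls for 42 of the 56 genes and below them for 5, where 34.4% of all tested genes lay above and 36.3% below. The changes were moderate: 41 of the 56 stayed within 1 on the log2 scale, 13 rose by 1 or more (7.73% of all tested genes did) and 2 fell to -1 or below (10.7%). The steepest rise was that of Eef1e1, at 2.34 ± 0.15, and the steepest fall that of Eif4g3, at -1.59 ± 0.19.

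**Figure D1:**
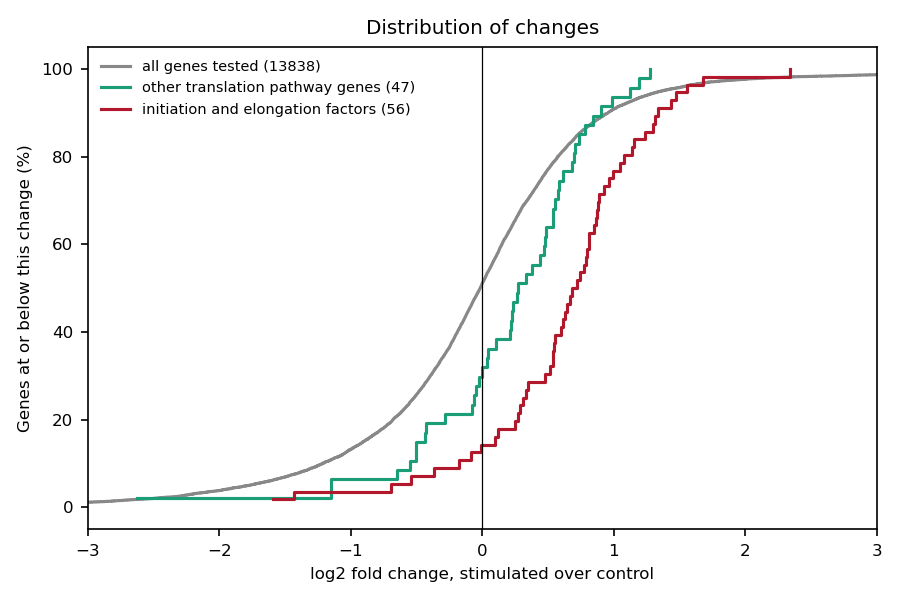
Cumulative distribution of log2 fold changes (x axis, stimulated over control) as the percent of genes at or below each change (y axis), for all 13838 genes tested, 47 other translation pathway genes and the 56 initiation and elongation factor genes. The curve of the 56 genes lies to the right of the others over most of its range, with a median of 0.70, and 8 of the 56 genes have changes below 0.

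Together the 56 genes held 1.35% and 1.27% of all gene counts without stimulation and 1.88% and 1.72% with it. Their summed level went from 12693 ± 463 to 18647 ± 1768 CPM (mean ± SD, n = 2 per group), a ratio of 1.47, and of 1.43 without Eef1a1. By role, the ratio of summed levels was 2.57 for the eIF5A genes, 1.96 for eIF2 and 1.96 for the scanning and joining factors. The ratio was 1.68 for eIF2B, 1.55 for eEF1 and eEF2, 1.47 for eIF4 and 1.42 for eIF3. It was 1.13 for the eIF4E-binding proteins and 0.427 for the elongation factor kinase and methyltransferases, the role with a lower summed level. Eef2k made up most of that last sum, with means of 764 of 814 CPM in control and 284 of 348 CPM in stimulated libraries. The low ratio is thus mainly that of Eef2k and not of the methyltransferase genes. These sums are descriptions with no test, since 2 libraries against 2 cannot reach a permutation p below 0.333.

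**Figure D2:**
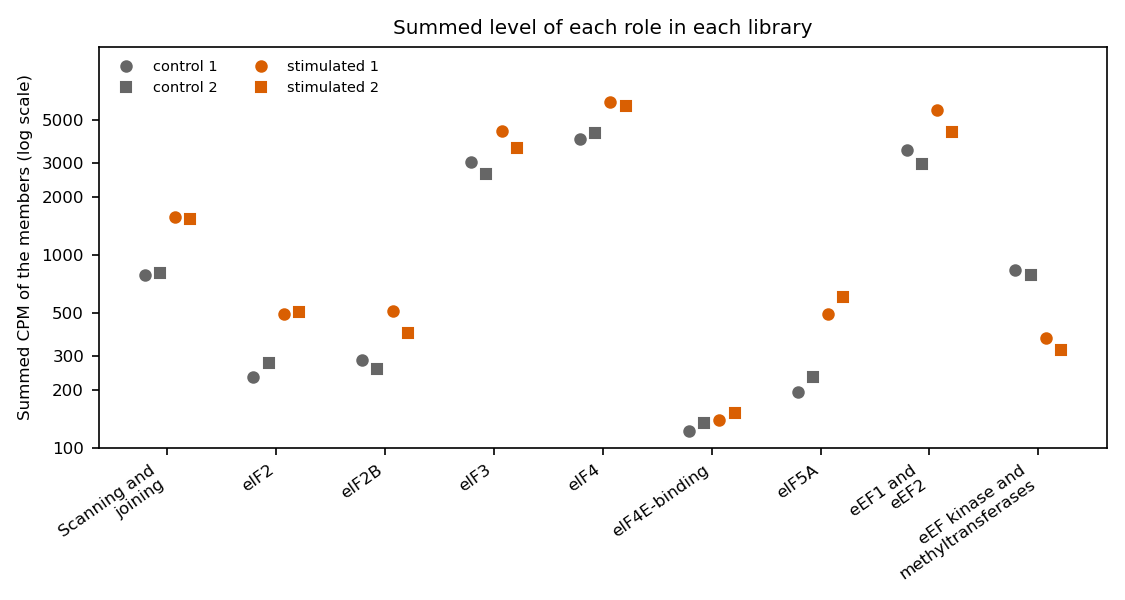
Summed CPM of the genes of each role (y axis, log scale) in each of the 4 libraries, controls in grey and stimulated libraries in orange. Both stimulated libraries lie above both controls in 8 of the 9 roles, and below them for the elongation factor kinase and methyltransferases, a sum made up mostly of Eef2k.

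**Figure D3:**
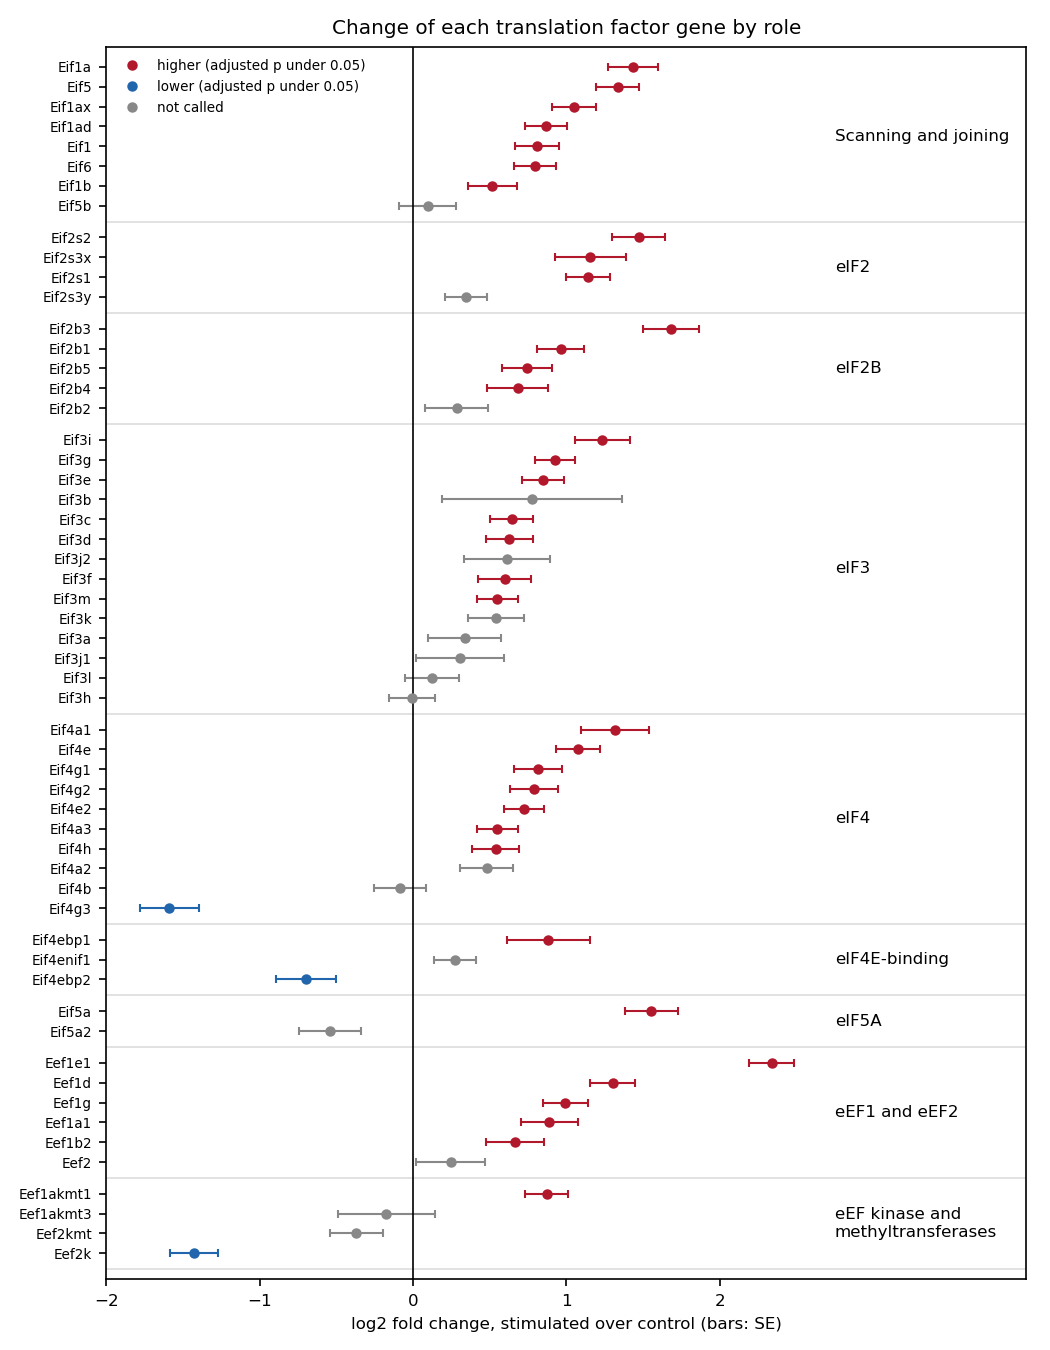
Log2 fold change of each of the 56 genes (x axis; bars show the SE), grouped by role, with red for genes called higher, blue for genes called lower and grey for genes not called. The 3 blue points are Eif4g3, Eif4ebp2 and Eef2k, and the rightmost point is Eef1e1.

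Since most of these genes moved together, their promoters were searched for shared letters. RefSeq windows from 250 bases before to 50 after an annotated start (GRCm38.p6) were matched by symbol for 43 of the 56 genes. The motifs were searched on both strands: CACGTG, the palindromic E-box known to bind MYC, MAX and USF proteins, CCGGAAGT, a core bound by ETS factors, and TATAAA, the core element bound by TBP. CACGTG was found in 12 of the 43 genes (27.9%), against 11.5% of the 9940 tested genes with a window and 8.09% of all 27025 genes with one. By call, it was found in 7 of 26 genes that rose (26.9%), 4 of 14 that did not pass (28.6%) and 1 of 3 that fell. CCGGAAGT was found in 8 of the 43 genes (18.6%, against 9.51% of tested and 4.31% of all genes) and TATAAA in 5 (11.6%, against 8.7% of tested and 15.7% of all genes). A match is a description of the letters and not a site that was shown to be used, and genes with several annotated starts had more sequence searched. The stretches around the E-box are shown for subunits of the cap-binding and helicase factors that rose, for an eIF3 subunit that rose, for the abundant elongation factor gene that did not pass and for the kinase gene that fell. All lie before the RefSeq start and outside the exons listed in the count tables, and the stretches of Eif4e and Eif4g1 lie inside those genes as listed, before an internal start. Capitals mark CACGTG.
Eif4e (chr3:138527177-138527236, plus strand, CACGTG 64 bases before the start): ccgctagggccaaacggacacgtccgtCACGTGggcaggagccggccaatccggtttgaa
Eif4g1 (chr16:20672646-20672705, plus strand, CACGTG 54 bases before the start): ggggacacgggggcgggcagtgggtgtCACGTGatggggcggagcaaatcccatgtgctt
Eif4h (chr5:134639473-134639532, minus strand, CACGTG 96 bases before the start): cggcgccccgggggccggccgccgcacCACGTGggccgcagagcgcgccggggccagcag
Eif4a1 (chr11:69672580-69672639, minus strand, CACGTG 189 bases before the start): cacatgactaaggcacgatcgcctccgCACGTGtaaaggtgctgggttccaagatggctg
Eif3f (chr7:108934320-108934379, plus strand, CACGTG 68 bases before the start): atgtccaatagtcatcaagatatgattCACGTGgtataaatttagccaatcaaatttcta
Eef2 (chr10:81176561-81176620, plus strand, CACGTG 43 bases before the start): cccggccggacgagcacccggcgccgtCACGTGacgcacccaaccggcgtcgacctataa
Eef2k (chr7:120842773-120842830, plus strand, CACGTG 31 bases before the start): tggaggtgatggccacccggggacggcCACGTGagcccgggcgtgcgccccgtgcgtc
The letters around the E-box differ between these genes, and the motif is found before genes that rose, fell and did not pass.

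Of the 8 genes for scanning, start-codon choice and subunit joining, 7 rose and 1 did not pass, with a median change of 0.84. Over all genes tested, 17.5% were called higher and 18.3% lower, the shares to set beside the counts of each role. Eif5, whose protein triggers GTP hydrolysis on eIF2 at the start codon, measured 104 and 113 CPM in control and 265 and 282 CPM in stimulated libraries and changed by 1.33 ± 0.14 (edgeR adjusted p = 0.000904). The change of Eif1a, a gene for the scanning factor eIF1A, was 1.43 ± 0.16 (edgeR adjusted p = 0.00122), at 62.1 and 75.7 CPM in control and 200.36 and 172 CPM in stimulated libraries. Its X-linked copy Eif1ax measured 164 and 179 CPM in control and 341 and 368 CPM in stimulated libraries and changed by 1.05 ± 0.14 (edgeR adjusted p = 0.00221). Thus both eIF1A genes rose by more than 1. Per kilobase, the ratio of Eif1a to Eif1ax was 0.692 and 0.775 without stimulation and 1.07 and 0.854 with it, so Eif1a was the higher of the pair in stimulated 1 and the lower in the other 3 libraries. Eif1, the gene of the factor that guards start-codon fidelity, had 45.4 and 43.3 CPM in control and 71.9 and 83.7 CPM in stimulated libraries, a change of 0.81 ± 0.14 (edgeR adjusted p = 0.00615). Its relative Eif1b had 52.7 and 41.8 CPM in control and 68.7 and 66.4 CPM in stimulated libraries, a change of 0.52 ± 0.16 (edgeR adjusted p = 0.0435). The call of Eif1b was the weakest of this role and ended in several fits, with an adjusted p of 0.212 without control 2, 0.15 without stimulated 1, 0.0905 without stimulated 2, 0.0893 with total-count scaling and 0.0704 with upper-quartile scaling. Eif6, which keeps large ribosomal subunits from joining too early and is the most abundant of the role per kilobase, measured 194 and 204 CPM in control and 356 and 335 CPM in stimulated libraries (0.80 ± 0.14, edgeR adjusted p = 0.00535). Eif1ad, a nuclear protein named for an eIF1A-like domain, measured 115 and 108 CPM in control and 214 and 193 CPM in stimulated libraries (0.87 ± 0.14, edgeR adjusted p = 0.00399). Eif5b, the subunit-joining GTPase, had 48.2 and 38.5 CPM in control and 52.1 and 40.4 CPM in stimulated libraries, with overlapping groups (0.09 ± 0.19, edgeR adjusted p = 0.729), and its sign turned with total-count scaling.

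The genes of eIF2, the carrier of the initiator tRNA, rose in 3 of 4 cases, where 17.5% of all tested genes rose. Eif2s2, the beta subunit, measured 43.6 and 54.9 CPM in control and 124 and 149 CPM in stimulated libraries and changed by 1.47 ± 0.17 (edgeR adjusted p = 0.00139). Eif2s1, the alpha subunit whose phosphorylation shuts down initiation under stress, measured 89.8 and 102 CPM in control and 219 and 203 CPM in stimulated libraries and changed by 1.14 ± 0.14 (edgeR adjusted p = 0.00171). In both genes the lowest stimulated library lay well above the higher control. The gamma subunit has a copy on each sex chromosome. Eif2s3x measured 10.7 and 16.4 CPM in control and 27.9 and 32.7 CPM in stimulated libraries (1.16 ± 0.23, edgeR adjusted p = 0.00974), and Eif2s3y measured 89.8 and 103 CPM in control and 123 and 123 CPM in stimulated libraries (0.35 ± 0.14, edgeR adjusted p = 0.0922) and did not pass. Per kilobase of listed length, the mean over the 4 libraries was 26.4 CPM for Eif2s3y and 5.75 for Eif2s3x, so the Y-linked copy was the more abundant. Of the 75-base stretches of Eif2s3x transcripts, 34.2% also occur in transcripts of other genes, and none of those of Eif2s3y do.

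Of the 5 genes of eIF2B, the exchange factor that recharges eIF2, 4 rose and 1 did not pass (17.5% of all tested genes rose). Eif2b3, the gamma subunit, had the steepest change, 1.68 ± 0.18 (edgeR adjusted p = 0.00104), at 12.2 and 11.1 CPM in control and 42.2 and 32.6 CPM in stimulated libraries. Eif2b1, the alpha subunit that senses phosphorylated eIF2, measured 48.6 and 42.6 CPM in control and 96.2 and 81.4 CPM in stimulated libraries (0.96 ± 0.15, edgeR adjusted p = 0.00414). Eif2b5, the catalytic epsilon subunit and by the mean over the 4 libraries the most abundant of the 5 per kilobase, measured 97.1 and 102 CPM in control and 188 and 146 CPM in stimulated libraries (0.74 ± 0.16, edgeR adjusted p = 0.0129). Eif2b4, the delta subunit, measured 63.5 and 52.4 CPM in control and 108 and 78.0 CPM in stimulated libraries (0.68 ± 0.20, edgeR adjusted p = 0.0351). The stimulated libraries lay above the controls in these 4 genes, as in 34.4% of all tested genes, and in each of the 4 stimulated 1 was higher than stimulated 2. The call of Eif2b5 ended without stimulated 1 (edgeR adjusted p = 0.0652). That of Eif2b4 ended at 0.109 without control 2, 0.187 without stimulated 1, 0.0607 with total-count scaling and 0.0515 with upper-quartile scaling, and its change without stimulated 1 was 0.43. Eif2b2, the beta subunit, had 62.5 and 47.6 CPM in control and 77.1 and 57.1 CPM in stimulated libraries, with overlapping groups (0.29 ± 0.20, edgeR adjusted p = 0.321).

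Genes of eIF3, the largest initiation complex and the platform of the small subunit, rose in 7 of 14 cases and none fell. Their median change was 0.60, and 17.5% of all tested genes rose and 18.3% fell. Eif3i, a propeller-shaped subunit, had the steepest rise, 1.23 ± 0.18 (edgeR adjusted p = 0.00286), at 120.0 and 98.5 CPM in control and 287 and 227 CPM in stimulated libraries. Eif3g, its RNA-binding neighbour in the complex, measured 129 and 129 CPM in control and 240.3 and 249 CPM in stimulated libraries (0.93 ± 0.13, edgeR adjusted p = 0.00266). Eif3e, known for binding eIF4G, measured 103 and 116 CPM in control and 201 and 193 CPM in stimulated libraries (0.85 ± 0.14, edgeR adjusted p = 0.00437). These 3 genes kept their calls with any 1 library left out. Smaller rises were those of Eif3c at 340.1 and 355 against 562 and 523 CPM (0.64 ± 0.14, edgeR adjusted p = 0.0136) and of Eif3d, a subunit with cap-binding activity, at 221 and 215 against 367 and 306 CPM (0.63 ± 0.15, edgeR adjusted p = 0.0186), controls first. Eif3f stood at 251 and 192 against 349.6 and 319.8 CPM (0.60 ± 0.17, edgeR adjusted p = 0.0352) and Eif3m at 67.0 and 68.2 against 104 and 93.6 CPM (0.55 ± 0.13, edgeR adjusted p = 0.0197). The groups did not overlap in any of the 7 genes that rose. This is no separate support, since the calls used the same libraries and 34.4% of all tested genes had both stimulated libraries above both controls. The calls of these last 4 genes ended in some fits, with edgeR adjusted p-values of 0.052 without control 1 and 0.0664 without stimulated 1 for Eif3c and 0.0544 without control 2 and 0.111 without stimulated 1 for Eif3d. For Eif3f they were 0.159 without control 2, 0.126 without stimulated 1, 0.0674 with total-count scaling and 0.0545 with upper-quartile scaling, and for Eif3m 0.0702 without control 1, 0.0584 without control 2 and 0.115 without stimulated 1.

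The other 7 eIF3 genes did not pass. Eif3l, the most abundant of the complex per kilobase, measured 525 and 489.9 CPM in control and 628 and 477 CPM in stimulated libraries, with overlapping groups (0.12 ± 0.18, edgeR adjusted p = 0.627). Eif3h had 232 and 252 CPM in control and 221 and 260.4 CPM in stimulated libraries and a change of -0.01 ± 0.15 (edgeR adjusted p = 0.974), whose sign turned with DESeq2 size factors. Eif3a, the large scaffold subunit, had 0.34 ± 0.24 with overlapping groups. Eif3b, the partner of Eif3i and Eif3g, had the widest error of all 56 genes at 0.78 ± 0.59, with libraries of each group far apart at 211 and 95.4 CPM in control and 357 and 169 CPM in stimulated libraries. In both groups the library titled rep1 was the higher for Eif3b. Eif3k stood at 144 and 108 against 199 and 167 CPM (0.54 ± 0.18, edgeR adjusted p = 0.0581), and passed in the DESeq2 test (0.0295), with no filter beyond 1 count (0.00633), without control 1 (0.0192) and without stimulated 2 (0.0487). The loosely bound subunit has the copies Eif3j1 (0.31 ± 0.29) and Eif3j2 (0.61 ± 0.28), which share 87.4% of the 75-base stretches of Eif3j2, so that reads of the pair cannot be fully separated.

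**Figure D4:**
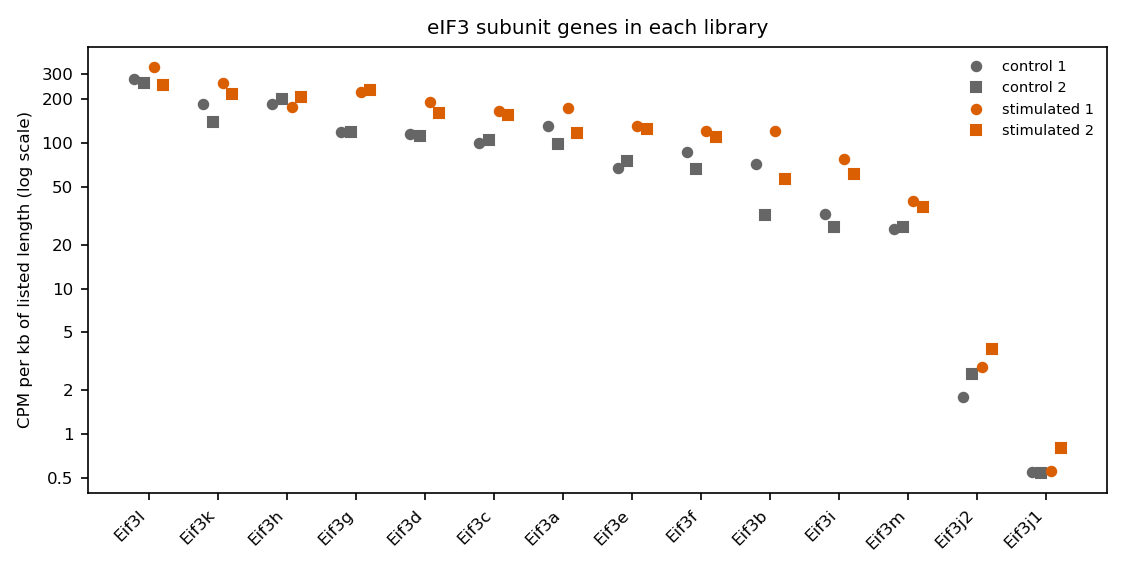
Level of each eIF3 subunit gene as CPM per kilobase of listed length (y axis, log scale) in each of the 4 libraries, ordered by the mean, controls in grey and stimulated libraries in orange. The 12 genes other than Eif3j1 and Eif3j2 have means from 32.1 to 279.9, and Eif3j2 and Eif3j1 lie at 2.79 and 0.614.

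The mRNAs of the eIF3 subunits were not at equal levels per kilobase, the scale on which genes can be compared. The mean over the 4 libraries was 279.9 CPM per kilobase for Eif3l, 199.98 for Eif3k, 193 for Eif3h and 174 for Eif3g. It was 145 for Eif3d, 132 for Eif3c and 130.0 for Eif3a, neighbours whose values in single libraries overlap. Lower levels were 99.5 for Eif3e, 96.1 for Eif3f, 70.2 for Eif3b, 49.4 for Eif3i and 32.1 for Eif3m. Listed lengths join the exons of all transcripts of a gene and differ from the mature mRNA, which can shift this order. The order also differed between groups: Eif3l was highest in all 4 libraries, but Eif3g lay below Eif3h in both controls, at 119.7 and 120.0 against 185 and 201, and above it in both stimulated libraries, at 224 and 232 against 176 and 208.

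Of the 10 eIF4 genes, 7 rose, Eif4g3 fell and 2 did not pass (17.5% of all tested genes rose and 18.3% fell). Eif4e, the cap-binding protein, measured 52.7 and 51.5 CPM in control and 119 and 101 CPM in stimulated libraries and changed by 1.08 ± 0.14 (edgeR adjusted p = 0.00218). Eif4a1, the main initiation helicase of growing cells, measured 50.2 and 68.5 CPM in control and 124 and 172 CPM in stimulated libraries and changed by 1.32 ± 0.22 (edgeR adjusted p = 0.0056). Eif4g1, the scaffold that joins them, measured 796 and 890.4 CPM in control and 1519.5 and 1444 CPM in stimulated libraries and changed by 0.81 ± 0.16 (edgeR adjusted p = 0.00815). These 3 genes, which encode a cap-binding, a helicase and a scaffold subunit of the complex eIF4F, kept their calls with any 1 library left out, while among the other scaffold and helicase genes Eif4g3 fell and Eif4a2 did not pass. Eif4g2, also called DAP5, a scaffold relative that does not bind eIF4E, measured 914 and 1019 CPM in control and 1665 and 1673 CPM in stimulated libraries (0.79 ± 0.16, edgeR adjusted p = 0.00906). Eif4e2, also called 4EHP, a cap-binding relative known as a repressor, measured 143 and 138 CPM in control and 236 and 229 CPM in stimulated libraries (0.72 ± 0.13, edgeR adjusted p = 0.00661). Eif4a3, a relative of the helicase that marks exon junctions, measured 151 and 156 CPM in control and 229.6 and 219 CPM in stimulated libraries (0.55 ± 0.13, edgeR adjusted p = 0.0184). Eif4h, a helper of the helicase and by the mean over the 4 libraries the most abundant of the role per kilobase, measured 642 and 711 CPM in control and 1025 and 938 CPM in stimulated libraries (0.54 ± 0.15, edgeR adjusted p = 0.0344). The calls of the last pair were weaker, with edgeR adjusted p-values of 0.0713 without control 1, 0.0515 without control 2 and 0.0895 without stimulated 1 for Eif4a3 and 0.152 without control 1, 0.0679 without control 2, 0.15 without stimulated 1 and 0.0513 without stimulated 2 for Eif4h.

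Eif4g3, another scaffold gene, was the eIF4 gene that fell. In the files it lies on chromosome 4, 137993022 to 138208508, plus strand, on a genome build that the sources used here do not name. It measured 44.5 and 33.0 CPM in control and 13.5 and 12.2 CPM in stimulated libraries and changed by -1.59 ± 0.19 (edgeR adjusted p = 0.00154), or from -1.79 to -1.36 with 1 library left out. The groups lay apart, with both stimulated libraries below both controls. Eif4b, the other helper of the helicase, had 1076 and 1037 CPM in control and 1094 and 898 CPM in stimulated libraries, with overlapping groups (-0.09 ± 0.17, edgeR adjusted p = 0.725). Eif4a2, the copy of the helicase found in resting tissues, had 153 and 168 CPM in control and 194 and 253 CPM in stimulated libraries (0.48 ± 0.17, edgeR adjusted p = 0.0671). It did not pass, and passed in the DESeq2 test (0.0329), with no filter beyond 1 count (0.0199) and without stimulated 1 (0.0394).

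The inhibitors of eIF4E moved in opposite directions. Eif4ebp2, the 4E-binding protein gene with the higher level in the controls, fell, at 23.5 and 23.0 CPM in control and 12.2 and 16.5 CPM in stimulated libraries, a change of -0.70 ± 0.20 (edgeR adjusted p = 0.0315). Eif4ebp1, the other member tested, rose, at 5.77 and 5.47 CPM in control and 8.08 and 12.7 CPM in stimulated libraries, a change of 0.88 ± 0.27 (edgeR adjusted p = 0.043). Neither pair of groups overlapped, where 34.4% of all tested genes lay above the controls and 36.3% below. Both genes were among the less abundant of the 56. Both calls ended in several fits. The edgeR adjusted p was 0.0735 without control 1, 0.0619 without control 2 and 0.171 without stimulated 1 for Eif4ebp2. For Eif4ebp1 it was 0.0829 without control 1, 0.103 without control 2, 0.229 without stimulated 2, 0.0848 with total-count scaling and 0.0667 with upper-quartile scaling, and its change without stimulated 2 was 0.55. Eif4enif1, which carries eIF4E to the nucleus and to P-bodies and is the most abundant of this role per kilobase, had 93.3 and 106 CPM in control and 119 and 122 CPM in stimulated libraries (0.27 ± 0.14, edgeR adjusted p = 0.162) and did not pass.

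Eif5a, the hypusine-carrying factor that helps ribosomes through difficult peptide bonds, measured 165 and 192 CPM in control and 472 and 577 CPM in stimulated libraries and changed by 1.55 ± 0.17 (edgeR adjusted p = 0.00106), a 2.94-fold rise. Its paralog Eif5a2 measured 29.0 and 41.0 CPM in control and 22.7 and 25.3 CPM in stimulated libraries (-0.54 ± 0.20, edgeR adjusted p = 0.0748) and did not pass, although the stimulated libraries lay below the controls. Eif5a2 passed with no filter beyond 1 count (0.0114) and without control 1 (0.0186). The enzymes that make hypusine on eIF5A also rose, Dhps by 0.68 ± 0.17 (edgeR adjusted p = 0.019) and Dohh by 0.58 ± 0.14 (edgeR adjusted p = 0.0178).

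Of the 6 genes named for eEF1 and eEF2, 5 rose and Eef2 did not pass (17.5% of all tested genes rose). Eef1e1, also called AIMP3, a small scaffold of the aminoacyl-tRNA synthetase complex rather than an elongation factor in the strict sense, measured 11.3 and 11.1 CPM in control and 58.4 and 55.2 CPM in stimulated libraries and changed by 2.34 ± 0.15 (edgeR adjusted p = 0.000239), a 5.06-fold rise. The libraries of each group lay close together, and the gene is listed on chromosome 13, 38645698 to 38659028, minus strand. Eef1a1, the tRNA carrier of elongation and by the mean over the 4 libraries the most abundant of the 56 genes per kilobase, measured 1208 and 1056 CPM in control and 2345 and 1843 CPM in stimulated libraries and changed by 0.89 ± 0.19 (edgeR adjusted p = 0.0113). The exchange factor subunits rose as well: Eef1d, the delta subunit, at 191 and 169 CPM in control and 458 and 429 CPM in stimulated libraries, a change of 1.30 ± 0.15 (edgeR adjusted p = 0.00119). Eef1g, the gamma subunit, measured 47.3 and 45.7 CPM in control and 101 and 84.4 CPM in stimulated libraries (0.99 ± 0.15, edgeR adjusted p = 0.00313), and Eef1b2, the beta subunit, measured 292 and 222 CPM in control and 448 and 368 CPM in stimulated libraries (0.67 ± 0.19, edgeR adjusted p = 0.0324). Eef1b2 was the least secure of these, with edgeR adjusted p-values of 0.126 without control 2, 0.138 without stimulated 1 and 0.0588 with total-count scaling. Eef2, the translocase, had 1763 and 1458 CPM in control and 2264 and 1553 CPM in stimulated libraries, with overlapping groups (0.25 ± 0.22, edgeR adjusted p = 0.435). Stimulated 1 was the highest library for Eef2, and stimulated 2 lay between the controls. Per kilobase, Eef2 stood above Eef1a1 in both controls, at 569 and 470.5 CPM against 485 and 424, and below it in both stimulated libraries, at 731 and 501 against 941 and 739.

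Eef2k, the kinase that phosphorylates and stops eEF2, fell. It measured 791 and 738 CPM in control and 306 and 261 CPM in stimulated libraries, a change of -1.43 ± 0.16 (edgeR adjusted p = 0.00112) and a ratio of 0.371, and its change stayed between -1.55 and -1.29 with 1 library left out. The gene is listed on chromosome 7, 120842831 to 120907219, plus strand. It was the most abundant of the 4 kinase and methyltransferase genes per kilobase in the controls, and lay below Eef1akmt1 in the stimulated libraries. Eef1akmt1, a lysine methyltransferase of eEF1A, rose, at 23.4 and 24.8 CPM in control and 45.1 and 43.2 CPM in stimulated libraries (0.87 ± 0.14, edgeR adjusted p = 0.00425). Eef2kmt, a methyltransferase of eEF2, had -0.37 ± 0.17, with the stimulated libraries below the controls, and Eef1akmt3 had -0.17 ± 0.32, with overlapping groups, and neither passed.

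Paralogs are compared here per kilobase of listed length, as ratios in each library and without a test. The ratio of Eif4a1 to Eif4a2 was 0.405 and 0.503 without stimulation and 0.785 and 0.839 with it. That of Eif4g1 to Eif4g3 was 27.4 and 41.3 without stimulation and 172 and 181 with it, and that of Eif5a to Eif5a2 was 12.0 and 9.84 without stimulation and 43.7 and 47.8 with it. In these 3 pairs both stimulated libraries had the higher ratio. The ratio of Eif4ebp1 to Eif4ebp2 was 0.448 and 0.432 without stimulation and 1.21 and 1.39 with it, so the order of the pair turned on this scale. It rests on the listed lengths: in CPM, Eif4ebp2 stayed above Eif4ebp1 in the stimulated libraries, at 12.2 and 16.5 against 8.08 and 12.65. The ratio of Eif2s3x to Eif2s3y was 0.13 and 0.174 without stimulation and 0.248 and 0.29 with it. Of the 75-base stretches, 25.4% of Eif4a1 and 34.2% of Eif2s3x also occur in transcripts of other genes, which leaves their ratios uncertain. The ratio of Eif4g1 to Eif4g2 was 0.885 and 0.888 without stimulation and 0.928 and 0.878 with it, with overlapping groups.

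**Figure D5:**
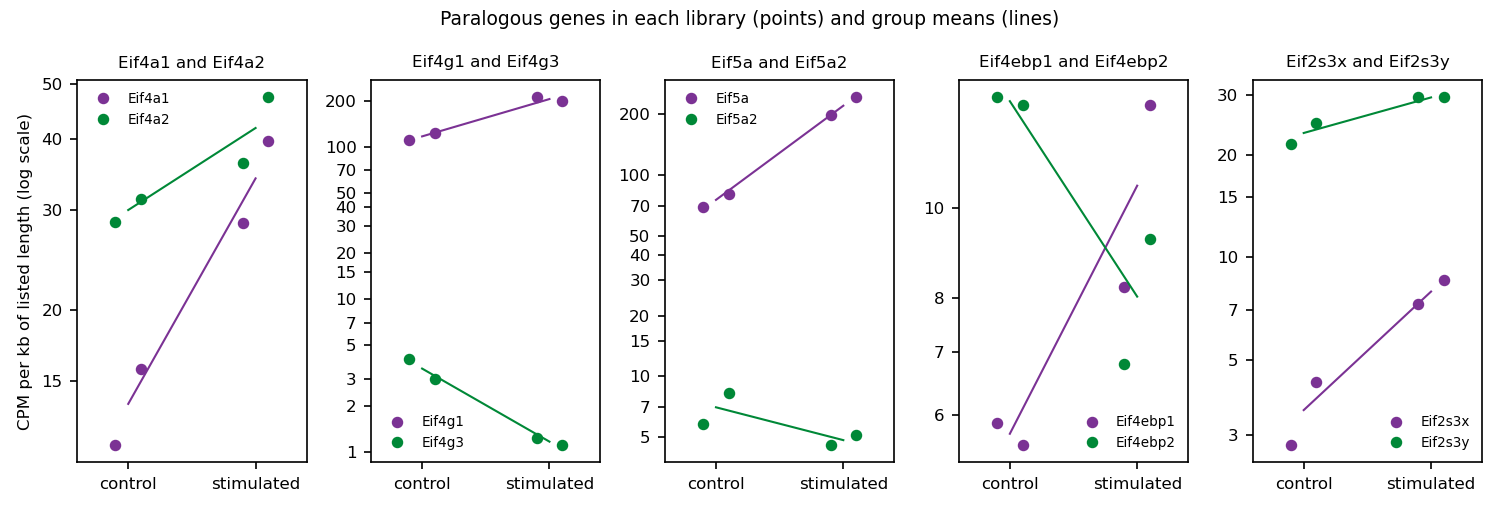
Levels of 5 paralog pairs as CPM per kilobase of listed length (y axis, log scale, a separate scale in each panel) in the controls and the stimulated libraries. Points are single libraries and lines join the group means. The lines of Eif4g1 and Eif4g3, of Eif5a and Eif5a2 and of Eif4ebp1 and Eif4ebp2 run in opposite directions, and those of Eif4ebp1 and Eif4ebp2 cross.

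Other genes of the translation pathway, outside the naming rule, rose in a smaller share (no test of this difference was made). Of 50 such genes listed, 49 matched and 47 were tested, and of these 17 rose (36.2%), 5 fell (10.6%) and 25 did not pass, with a median change of 0.27. The count of rises was 9 without stimulated 1 and 11 without control 2, and of falls 1 without stimulated 1 and 2 without control 2 or stimulated 2. Abce1, which splits ribosomes after termination, measured 176 and 228 CPM in control and 472 and 452 CPM in stimulated libraries and changed by 1.19 ± 0.17 (edgeR adjusted p = 0.00276), and Etf1, the release factor eRF1, measured 148 and 195 CPM in control and 371 and 376 CPM in stimulated libraries and changed by 1.12 ± 0.17 (edgeR adjusted p = 0.00357). Pabpc4, a poly(A)-binding protein, measured 25.02 and 24.5 CPM in control and 60.7 and 59.1 CPM in stimulated libraries and changed by 1.27 ± 0.14 (edgeR adjusted p = 0.001). The falls included genes that restrain initiation, among them Pdcd4, Paip2 and the eIF2 kinase gene Eif2ak3, but genes of this kind did not all fall. Among the genes of the naming rule, the repressor gene Eif4e2 and the inhibitor gene Eif4ebp1 rose. Outside it, the other eIF2 kinase genes Eif2ak1, Eif2ak2 and Eif2ak4 did not pass. Pdcd4, an inhibitor of the eIF4A helicase, measured 199.71 and 239.8 CPM in control and 84.4 and 113 CPM in stimulated libraries and changed by -1.15 ± 0.19 (edgeR adjusted p = 0.00441), and Paip2, an inhibitor of poly(A)-binding protein, measured 209 and 243 CPM in control and 145 and 143 CPM in stimulated libraries and changed by -0.65 ± 0.14 (edgeR adjusted p = 0.0131). The call of Paip2 ended without control 2, stimulated 1 or stimulated 2, with edgeR adjusted p-values of 0.0518, 0.053 and 0.0592. Rptor, the mTORC1 scaffold, measured 126 and 113 CPM in control and 89.4 and 79.7 CPM in stimulated libraries and changed by -0.50 ± 0.14 (edgeR adjusted p = 0.0311), with 0.128 without control 1, 0.0651 without stimulated 1 and 0.182 without stimulated 2. The most abundant genes that did not pass were Ddx3x (0.23 ± 0.17), Mknk2, a kinase of eIF4E (-0.55 ± 0.23), and Ppp1r15b, a regulator of eIF2 dephosphorylation (0.24 ± 0.14). Mknk2 passed with no filter beyond 1 count (0.00758) and without control 1 (0.0161).

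By group, 6 of the 9 tested hypusine, termination and recycling genes rose and none fell, as did 5 of 8 genes of alternative initiation routes, among them Eif2a and Denr. Of the eIF2 kinases and their regulators 1 of 7 rose and 2 fell: the phosphatase subunit Ppp1r15a rose by 0.70 ± 0.17, while Eif2ak3, the stress kinase PERK, and its inhibitor Dnajc3 fell, at -0.44 ± 0.13 and -0.50 ± 0.15. The calls of Eif2ak3 and Dnajc3 lay near the threshold (edgeR adjusted p = 0.0403 and 0.0397). Of 10 tested mTORC1 genes 2 rose, Rps6kb1 and Mlst8, at 0.62 ± 0.16 and 0.55 ± 0.16, and 1 fell. Of 13 poly(A)-binding and eIF4F partner genes 3 rose and 2 fell. In these last 3 groups the counts lie near the 17.5% called higher and 18.3% called lower over all genes. Genes named here outside the naming rule were chosen after their values were seen.

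Reads of some of these genes may be shared with copies elsewhere. Over the 56 genes, the share of 75-base stretches found in annotated transcripts of other genes was under 10% for 44, and 21 of these had none. Among the rest were Eif3j2 and Eif3j1, Eef1g (38.0%), Eif3d (34.2%, from an overlapping antisense gene), Eef1a1 (26.6%) and Eif4a1 (25.4%). The sources used here do not say how such reads were counted, so levels of these genes are uncertain. Of the 44 genes under 10%, 29 rose and 3 fell, with a median change of 0.70.

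Library totals ranged from 23047723 to 29078765 counts. The 12 ILC3 markers were all detected, and Il22, Il17f and Id2 rose, while those that fell included Rora, Kit, Il23r, Il1r1 and Gata3. Summed levels of 5 markers each of other cell types are given with controls first. They were 24.0 and 19.6 against 16.0 and 12.0 CPM for T cells, 3.12 and 3.79 against 1.66 and 1.93 CPM for B cells and 7.37 and 8.57 against 1.43 and 2.19 CPM for stromal cells. They were 1.39 and 1.16 against 0.396 and 0.306 CPM for epithelial cells, 1.82 and 1.61 against 0.911 and 1.62 CPM for erythroid cells and 0.465 and 0.376 against 2.06 and 8.67 CPM for myeloid cells. The T cell, B cell, stromal and epithelial sums were thus lower in both stimulated libraries, and the myeloid sum was higher, through Adgre1 at 1.74 and 8.19 CPM. In the controls the stromal sum was mostly Col3a1, at 6.74 and 8.44 CPM. Markers of a sum did not all move alike: Pax5, Col1a1, Pdgfra and Dcn, all under 1 CPM, lay above the controls in both stimulated libraries. Trac fell by 4.33 ± 0.51 and Col3a1 by 2.73 ± 0.50 on the log2 scale. Cd14, Lyz2 and Hbb-bs were at 0 in every library. The part of these markers in the changes of the 56 genes was not tested.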

How the data were processed

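RNA-seq libraries were analysed, 2 per group. The submitters' processing notes list STAR, Subread and featureCounts without versions. The sources used here name no genome build, annotation or strand setting, which leaves antisense and overlapping genes uncertain. Per the file headers, the deposited tables hold a raw count per gene with the CPM and the RPKM that the authors made from it. The deposited CPM is the count scaled to 1000000 per library and the deposited RPKM divides that by the listed length in kilobases; both were checked on the values and not used further.

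Identifiers were matched to GENCODE M21 (40254 of 41388), and all 56 members overlap the annotated gene. Counts were tested with the edgeR 4.0.16 quasi-likelihood test (R 4.3.3; filterByExpr, TMM, robust estimation, treatment only) with Benjamini-Hochberg adjustment over 13838 genes. The SE is the absolute change over the square root of F. The test was checked on simulated counts. The common biological coefficient of variation was 18.4%. Depth limits genes with few counts most: Eif4ebp1 had 160 to 289 counts per library.

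The fit was repeated with DESeq2 1.42.0 and its size factors, limma-voom (limma 3.58.1), upper-quartile and total-count scaling, TMM without abundant gene classes, 2 other filters, non-robust estimation, a threshold of 0.01, a replicate block and each library left out. Full values are given for members past the threshold and for the most abundant member of each role per kilobase, and, of the other pathway genes, for the 3 most significant in each direction and the 3 most abundant not called. The members, lists and motifs were chosen with earlier results of these data known.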

Additional observations from a re-analysis of the deposited data

How the results depend on the processing

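Of the 39 genes called among the 56, 27 were called in every fit that left out 1 library and 12 lost the call in at least 1 such fit. The number that rose ranged from 27 to 34 and the number that fell from 2 to 3 over these fits. No called gene changed direction under any alternative run. All 39 calls remained with DESeq2 size factors, with TMM computed without the member and other abundant gene classes, with either other filter, in DESeq2 and limma-voom and without robust estimation. With upper-quartile scaling 35 remained and with total-count scaling 34, where the median of all genes moved to -0.11 and that of the members to 0.61. At an adjusted p of 0.01, 24 members rose and 2 fell, 6 other pathway genes rose and 1 fell, and over all genes 1244 rose and 1324 fell. Without the 12 genes that share 10% or more of their stretches, an alternative chosen after seeing the data, 29 rose and 3 fell.

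With the replicate block (titles with and without rep1), 44 members rose and 5 fell, 25 other pathway genes rose and 10 fell, and over all genes 3986 rose and 4000 fell. The labels state no pairing, and they do not say whether libraries with the same kind of title were handled together. A shared batch can therefore not be told from the labels. The deviations of the libraries titled rep1 from their group means correlated at 0.55 across genes. The block added 10 members to the calls, among them Eif3b (edgeR adjusted p = 1.74e-10), Eif3k (7.29e-06), Eif5a2 (2.86e-05) and Eif4a2 (0.000177), and Mknk2 (4.37e-05) passed as well.

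Leaving out each library in turn gave 1593 to 2001 higher and 1665 to 2035 lower genes over all genes, with the lowest counts without stimulated 1, and 9 to 14 higher and 1 to 4 lower other pathway genes. In these fits the group left with 1 library is assumed to vary like the other. With 2 libraries per group, small changes and genes of few counts are the least certain.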
